A study of Mus musculus with 4 samples.

Results

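The melanocyte lineage and pigment genes are 10 genes that mark pigment cells or build pigment: the melanin enzymes Tyr, Tyrp1 and Dct, the pigment organelle genes Pmel, Mlana and Slc45a2, the transcription factors Mitf and Sox10, and the receptors Kit and Ednrb. They were taken by gene symbol from the 19938 genes with a probe set of their own on the table, and all 10 were found. The brightest probe set stood for a gene, which mattered for Mitf alone, the only member with 2 probe sets. Isolated skin of mouse embryos at E16.5 (E, embryonic day) gave RNA for 4 Affymetrix arrays, 2 of control and 2 of Ovol2 BT embryos, with RNA of 2 mice on each. Ovol2 BT embryos carried TRE-Ovol2-Flag, a Flag-tagged Ovol2 under a tetracycline-responsive element, together with K5-tTA, a transactivator that the keratin 5 promoter drives in basal keratinocytes. Controls were TRE-Ovol2-Flag alone or wild type, and none of the arrays came from K5-tTA alone. The labels give all 4 arrays as female, the strain of the controls as CB6F1 and that of the Ovol2 BT embryos as FVB/N, although they also speak of littermates. FVB/N is an albino strain, and CB6F1 mice are the hybrid of BALB/c, which carries the same albino allele of Tyr, with the pigmented C57BL/6. As labelled, strain and transgene cannot be told apart in any value below.

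Melanocytes arise from the neural crest as melanoblasts, which migrate through the dermis, enter the epidermis and then gather in the growing hair follicles. Survival and migration on this route depend on Kit and Ednrb, whose ligands Kitl and Edn3 come from surrounding skin cells. Sox10 and Pax3 activate Mitf, the central regulator of the lineage, and Mitf activates the genes of the melanosome, the organelle in which melanin is made. At this age Dct, Kit, Mitf and Sox10 are the classical markers of melanoblasts, while full pigment synthesis comes later, with hair growth.

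Mitf is known to bind a sequence called the M-box in promoters of the tyrosinase family, and the sequences before 3 of these genes are shown because the enzymes they precede are known targets of Mitf. Of the members, 6 had an entry in the table of RefSeq promoters used here (GRCm38.p6), and the 250 bases before each listed start were searched on both strands. The longest run of letters that the windows of Tyr, Tyrp1 and Dct share is GTCATGTGCT, which occurred in 0.155% of all 32851 promoter windows, these 3 included. It holds the core of the M-box, TCATGTG. The core alone occurred before the same 3 members and in 3.25% of windows, and the E-box CACGTG before none of the 6 members and in 6.02% of windows. A match describes the letters and is not a measured site. In the sequences below, written 5′ to 3′ on the strand of the gene and ending at the base before the start (Tyr, Dct), or covering 30 bases around the run (Tyrp1), the shared run is in capitals.
Tyr, chr7:87493513-87493762, minus strand: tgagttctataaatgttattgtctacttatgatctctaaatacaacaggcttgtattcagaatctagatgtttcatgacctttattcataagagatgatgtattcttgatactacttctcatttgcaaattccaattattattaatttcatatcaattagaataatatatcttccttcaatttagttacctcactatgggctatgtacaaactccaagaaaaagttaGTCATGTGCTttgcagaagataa
Dct, chr14:118052247-118052496, minus strand: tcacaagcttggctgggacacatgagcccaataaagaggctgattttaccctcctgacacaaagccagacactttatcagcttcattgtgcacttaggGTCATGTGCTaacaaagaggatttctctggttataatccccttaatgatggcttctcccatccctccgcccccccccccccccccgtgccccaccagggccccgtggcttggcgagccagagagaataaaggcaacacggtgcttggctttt
Tyrp1, chr4:80834155-80834184, plus strand: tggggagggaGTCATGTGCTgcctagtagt
The shared run began 23 bases before the listed start in Tyr, 48 in Tyrp1 and 152 in Dct. Among the other pigment pathway genes described below, 43 had an entry in that table. The shared run occurred in 0 of them and the core in 5, Hps1, Mc1r, Slc24a5, Slc7a11 and Trpm1. The E-box occurred in 12 of the 43, in at least 1 window of the gene, while the shares above count windows. In all, 39 genes had the shared run in a window, and 7 of them were tested. Outside the members these were 4 genes, with a median log2 difference of 0.0029 between genotypes. Of the 4, 0 were called, beside 0.0268% of all genes tested. The run was picked from Tyr, Tyrp1 and Dct, and so few genes do not describe the targets of Mitf.

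Ovol2, the check of the labels, read 7.59 and 8.29 in control and 12.93 and 12.96 in Ovol2 BT skin on the log2(intensity + 16) scale, in which all levels and differences here are given. Keratinocyte and dermal fibroblast markers were bright on every array, with Krt1 at 13.99 or above and Dcn at 13.33 or above. Ovol2 BT replicate 2 stood apart: Pearson's r over genes, which are not independent replicates, was 0.983 between the controls and 0.930 between the Ovol2 BT arrays. With control replicates 1 and 2, r was 0.9759 and 0.9765 for Ovol2 BT replicate 1, and 0.9349 and 0.9239 for Ovol2 BT replicate 2. Ovol2 BT replicate 1 was thus more like the controls than like the other Ovol2 BT array. On that array 5.97% of the 14953 genes tested lay over 2-fold below the mean of the other 3 arrays.

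In Ovol2 BT skin no member passed the test, and most leaned lower. The limma fit across all 14953 genes called 0 of the 10 members at an adjusted p under 0.05, against 4 genes or 0.0268% of all genes tested. At an unadjusted p under 0.05 there was 1, Tyr, lower, against 1.74% of genes in that direction. In the same limma fit Ovol2, with a difference of 5.01, reached an adjusted p of 0.0253. With 2 arrays per group, a gene that did not pass is thus not shown to be unchanged. The difference was below 0 for 8 of 10 members, Sox10 among them at only -0.0002, and for 45.6% of all genes. Both Ovol2 BT arrays lay below both controls for 5 members, Tyr, Dct, Slc45a2, Kit and Ednrb, and above them for none, against 14.1% and 20.1% of genes tested. Groups did not overlap for 34.2% of all genes in either direction. The median difference of the members was -0.23, and that of all genes tested was 0.03. Against the control mean the median member was at -0.22 on Ovol2 BT replicate 1 and -0.14 on replicate 2. Over all genes tested these medians were -0.0046 and 0.0762. The summed intensity of the 10 genes was 9798 and 10264 in the controls and 8452 and 8574 in Ovol2 BT skin. The brightest members, Dct, Kit and Pmel, weigh most in these sums. In whole skin, fewer pigment cells, less RNA per pigment cell and differences in other cells that share Kit, Sox10 or Ednrb cannot be told apart. Whether arrays of 1 group came from separate litters is not stated, so the tests measure the spread between these arrays only.

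**Figure D1:**
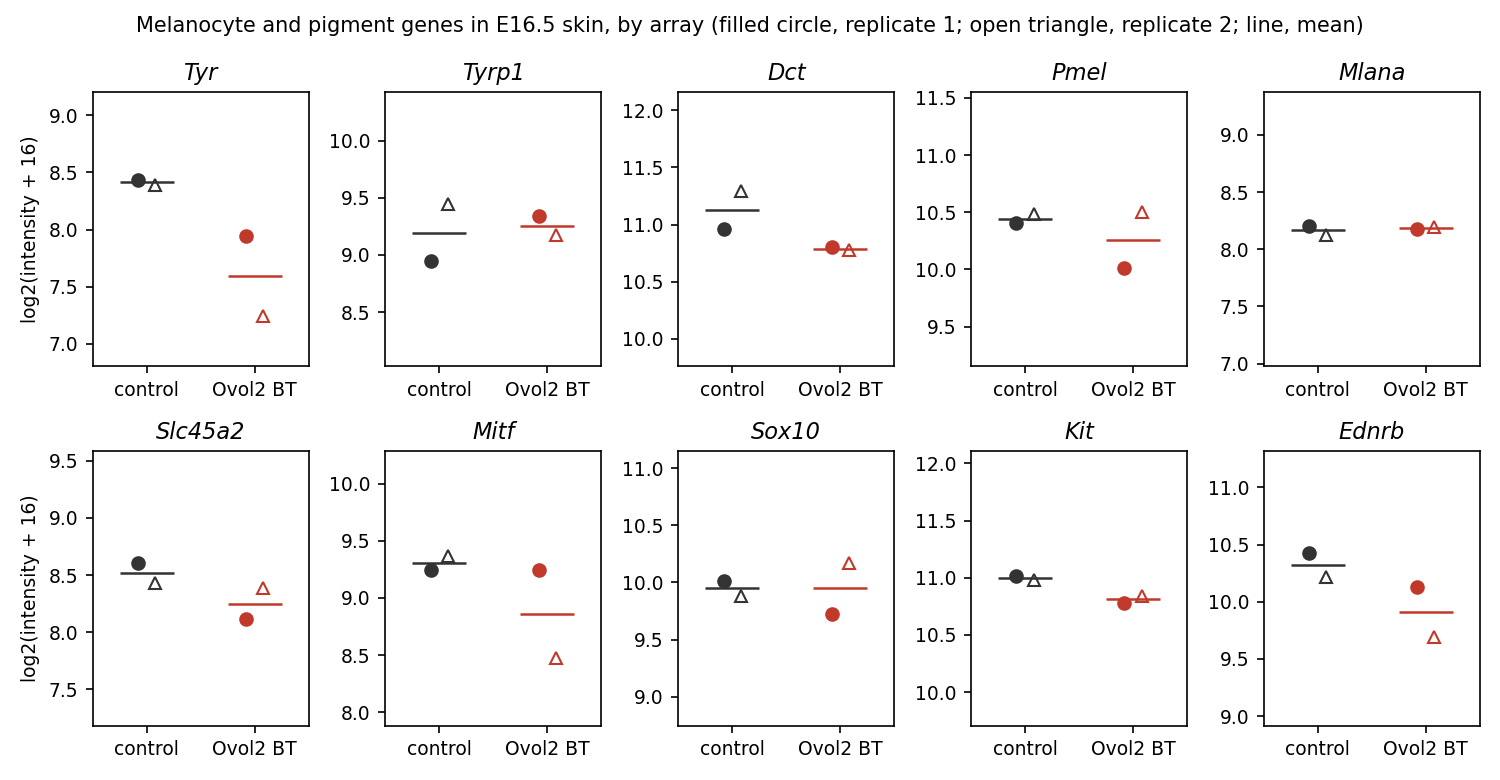
Level of each of the 10 genes on every array, as log2(intensity + 16), with panels of equal height centred on the gene's mean; black symbols are control and red symbols Ovol2 BT, circles are replicate 1, open triangles replicate 2 and lines the group means. Both Ovol2 BT arrays lie below both controls for Tyr, Dct, Slc45a2, Kit and Ednrb, while Mitf is low on Ovol2 BT replicate 2 only.

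Tyr, the rate-limiting enzyme of melanin synthesis, had the largest difference of the 10. Its intensity was 329.7 and 319.7 in control and 230.4 and 135.4 in Ovol2 BT skin. On the log2 scale these were 8.43, 8.39, 7.94 and 7.24, so that both controls sat close together and both Ovol2 BT arrays lay below them, the second also below the level of 7.32 under which genes were left out. Tyr thus differed by -0.82 (SE 0.26, 95% interval -1.47 to -0.17, limma adjusted p = 0.906, unadjusted p = 0.0221, n = 2 arrays per group). The gap between the Ovol2 BT arrays, 0.70, was nearly as large as the difference between genotypes. Without Ovol2 BT replicate 2 the difference was -0.47 (adjusted p = 0.472). Without Ovol2 BT replicate 1 it was -1.17 (adjusted p = 0.00217), but that fit lends the spread of the controls to a single Ovol2 BT array and called 16.4% of all genes.

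Both relatives of Tyr had smaller differences. Dct, the dopachrome tautomerase that is switched on early in melanoblasts, read 10.96 and 11.30 in control and 10.80 and 10.78 in Ovol2 BT skin. The 2 Ovol2 BT arrays were nearly equal and lay below both controls, but control replicate 1 was closer to them than to control replicate 2. The difference was -0.34 (SE 0.18, 95% interval -0.80 to 0.12, limma adjusted p = 0.906). Tyrp1, which acts late in the synthesis of black pigment, read 8.94 and 9.44 in control and 9.34 and 9.17 in Ovol2 BT skin. Its Ovol2 BT arrays fell between the controls, and the difference was 0.06 (SE 0.24, 95% interval -0.53 to 0.66, adjusted p = 0.965). Its sign turned without control replicate 1 (-0.19). So the 3 enzymes whose promoters are printed above for the same run of letters had differences of -0.82, -0.34 and 0.06, with intervals that overlap, and the differences between the enzymes were not tested.

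The melanosome genes had differences of 0.02 to -0.27. Pmel, whose protein forms the fibrils on which melanin is laid down, read 10.41 and 10.48 in control and 10.01 and 10.50 in Ovol2 BT skin. Its low value was on Ovol2 BT replicate 1 only, and the other Ovol2 BT array was the highest of the 4 (difference -0.19, SE 0.23, limma adjusted p = 0.916). Mlana, a melanosome membrane protein that works with Pmel, read 8.21 and 8.13 in control and 8.17 and 8.19 in Ovol2 BT skin. These 4 values lay closer together than those of any other member, with a difference of 0.02 (SE 0.15, 95% interval -0.37 to 0.40, adjusted p = 0.986); with cyclic loess scaling it was -0.03. Slc45a2, a transporter needed for full pigmentation, read 8.60 and 8.43 in control and 8.11 and 8.38 in Ovol2 BT skin. Its groups did not overlap, yet only 0.05 separated control replicate 2 from Ovol2 BT replicate 2, and the difference was -0.27 (SE 0.19, 95% interval -0.73 to 0.20, adjusted p = 0.906).

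Of the transcription factors of the lineage, Mitf leaned lower on a single array and Sox10 did not lean either way. Mitf read 9.25 and 9.37 in control and 9.25 and 8.47 in Ovol2 BT skin. Ovol2 BT replicate 1 equalled control replicate 1, and the low value was on Ovol2 BT replicate 2 alone (difference -0.45, SE 0.30, 95% interval -1.19 to 0.29, limma adjusted p = 0.906). Without that array the difference was -0.06, and without Ovol2 BT replicate 1 it was -0.84. The second Mitf probe set was dim, between 4.90 and 5.27 on all 4 arrays, under the level of the filter. Mitf starts from several promoters, and the most downstream of its 3 listed starts is the one known for the melanocyte form. That window is shown because cAMP, the messenger of the melanocortin receptor Mc1r, acts on it through a response element, TGACGTCA, in capitals. These letters begin 153 bases before the start and occur in 1.55% of all windows. The array cannot tell the forms of Mitf apart here.
Mitf, chr6:97991533-97991782, plus strand: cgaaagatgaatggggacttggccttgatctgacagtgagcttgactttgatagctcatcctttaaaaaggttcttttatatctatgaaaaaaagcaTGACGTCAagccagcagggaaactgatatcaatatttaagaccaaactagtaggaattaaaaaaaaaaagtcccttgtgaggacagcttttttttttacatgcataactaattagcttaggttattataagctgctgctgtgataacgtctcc
Sox10, which is shared with Schwann cells, read 10.02 and 9.88 in control and 9.73 and 10.17 in Ovol2 BT skin. The controls lay between the Ovol2 BT arrays, so that the difference was -0.0002 (SE 0.23, 95% interval -0.57 to 0.57 in limma), and it was 0.03 with quantile normalisation and 0.06 with median centring.

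Both receptors were a little lower on each Ovol2 BT array. Ednrb, the receptor of endothelin 3, read 10.43 and 10.22 in control and 10.13 and 9.69 in Ovol2 BT skin. The Ovol2 BT arrays lay below the controls, the first by 0.09 below the nearer control (difference -0.41, SE 0.23, 95% interval -0.98 to 0.16, limma adjusted p = 0.906). Without Ovol2 BT replicate 2 its difference was -0.20, and without Ovol2 BT replicate 1 it was -0.63. Kit, the receptor of Kit ligand and also a marker of mast cells, read 11.02 and 10.98 in control and 10.78 and 10.84 in Ovol2 BT skin. Replicates of Kit differed by at most 0.06, and the step between genotypes was -0.19 (SE 0.15, 95% interval -0.58 to 0.20, adjusted p = 0.906). For Tyr, Mitf and Ednrb, which made up the 3 members called without Ovol2 BT replicate 1, that fit called 12.8% of all genes lower.

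**Figure D2:**
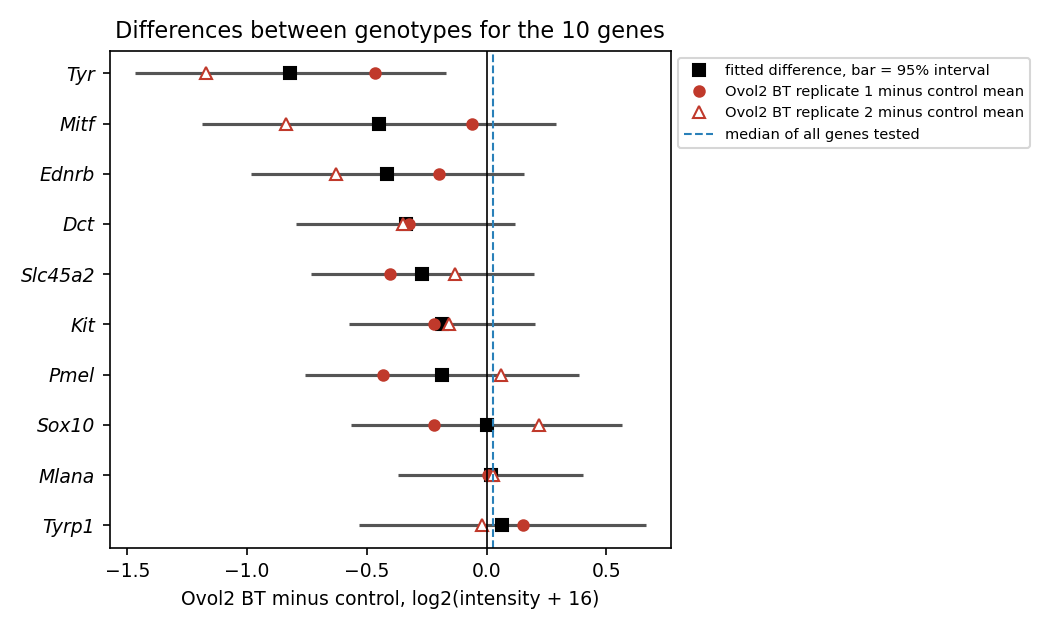
Difference between Ovol2 BT and control for each of the 10 genes on the log2(intensity + 16) scale; squares and bars are the limma estimate and its 95% interval, red symbols the Ovol2 BT arrays singly, minus the mean of the controls, and the dashed line the median of all genes tested (0.03). The interval of Tyr (-1.47 to -0.17) is the only one that leaves out 0, and the 2 Ovol2 BT arrays lie far apart for Tyr, Mitf, Ednrb, Pmel and Sox10.

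The members varied more between the Ovol2 BT arrays than between the controls. The median absolute gap was 0.13 between the controls and 0.35 between the Ovol2 BT arrays over the 10 genes, and 0.13 and 0.28 over all genes tested. Ovol2 BT replicate 2 was the lowest of the 4 arrays for 4 members, Tyr, Dct, Mitf and Ednrb, and for 29.7% of all genes. Only Tyr lay over 2-fold below the mean of the other 3 arrays there. Ovol2 BT replicate 1 was the lowest of the 4 arrays for Pmel, Slc45a2, Sox10 and Kit, and the share of all genes lowest there was not counted. The part of these array differences in the lower median of the members was not tested.

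Around these genes, the wider pigment pathway was described with a list of 53 genes, of which 51 were on the table (Asip and Ednra had no probe set named by them alone) and 48 were tested. None of the 48 passed the limma test across all genes. At an unadjusted p under 0.05, 1 was higher (Sox9) and 2 were lower (Rab27a and Lef1), 3 of 48 beside 4.23% of all genes tested (2.49% higher, 1.74% lower). The differences of 29 were below 0 and of 19 above, with a median of -0.08, where 45.6% of all genes were below 0. Both Ovol2 BT arrays lay below both controls for 10 of the 48 and above them for 7, beside 14.1% and 20.1% of all genes.

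The ligands of the receptors above had differences in both directions. Kitl, the ligand of Kit made by keratinocytes and dermal cells, read 10.58 and 10.71 in control and 10.75 and 9.37 in Ovol2 BT skin. A single array was low, and the difference was -0.58 (SE 0.45, limma adjusted p = 0.906). It became 0.11 without Ovol2 BT replicate 2 and -1.27 without Ovol2 BT replicate 1, fits that each rest on a single Ovol2 BT array. Edn3, the ligand of Ednrb, read 9.52, 9.51 and 9.50 on the controls and Ovol2 BT replicate 1, and 9.85 on Ovol2 BT replicate 2 (difference 0.17, SE 0.21, adjusted p = 0.916). Its relative Edn2 was higher on both Ovol2 BT arrays, at 8.07 and 8.06 in control and 8.26 and 8.71 in Ovol2 BT skin. The difference of Edn2 was 0.42 (SE 0.21, limma adjusted p = 0.906), and 0.64 without Ovol2 BT replicate 1. Fgf2, a growth factor for melanocytes, read 9.35 and 9.25 in control and 9.19 and 8.23 in Ovol2 BT skin (-0.60, SE 0.34, limma adjusted p = 0.906). The difference of Fgf2 was -0.12 without Ovol2 BT replicate 2 and -1.07 without Ovol2 BT replicate 1. Mc1r, the melanocortin receptor that steers pigment type, read 9.71 and 9.66 in control and 9.62 and 9.54 in Ovol2 BT skin (-0.11, SE 0.18, adjusted p = 0.935).

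Rab27a had the lowest difference of the pathway list. It is the small GTPase that, with Mlph and Myo5a, ties melanosomes to the actin network. It read 9.80 and 9.85 in control and 9.04 and 9.19 in Ovol2 BT skin, with both Ovol2 BT arrays well below both controls. Rab27a differed by -0.71 (SE 0.19, 95% interval -1.18 to -0.25, limma adjusted p = 0.789, unadjusted p = 0.0104). The difference was -0.79 without Ovol2 BT replicate 2 and -0.63 without Ovol2 BT replicate 1. Of its partners, Mlph was at 0.26 and Myo5a at -0.36. Myo5a was low on Ovol2 BT replicate 2 alone, at 8.84 against 9.73 to 9.90 on the other 3 arrays.

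Among melanosome genes, Gpnmb, which is also made by macrophages, differed by -0.28 (SE 0.24, limma adjusted p = 0.906). Its levels were 8.38 and 8.95 in control and 8.46 and 8.31 in Ovol2 BT skin, so that the difference rested on the high control replicate 2 and was 0.01 without it. Oca2, a melanosomal transporter, read 8.08, 8.23, 8.26 and 8.06, with a difference of 0.01 (SE 0.17, adjusted p = 0.995; -0.05 with cyclic loess). Slc7a11, the cystine transporter that favours yellow pigment and also serves glutathione synthesis, read 9.62 and 9.47 in control and 10.85 and 9.78 in Ovol2 BT skin (0.77, SE 0.37, adjusted p = 0.906). Without Ovol2 BT replicate 2 it was 1.31 (adjusted p = 0.00940), in a fit that called 0.716% of all genes, and without Ovol2 BT replicate 1 it was 0.24.

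Of the other regulators, Pax3, the activator of Mitf, read 8.64 on both controls and 8.32 and 8.28 in Ovol2 BT skin. Replicates were close and the groups apart, yet the difference of -0.34 (SE 0.16, 95% interval -0.74 to 0.07, limma adjusted p = 0.906) did not pass. Sox9, a factor of hair follicle epithelium as well as of melanocytes, read 10.52 and 10.69 in control and 11.13 and 11.20 in Ovol2 BT skin. Both Ovol2 BT arrays were above both controls (0.56, SE 0.16, limma adjusted p = 0.901, unadjusted p = 0.0165), and the difference was 0.60 without Ovol2 BT replicate 1. Lef1, the Wnt effector of hair placode and dermal condensate that also acts with Mitf, read 11.29 and 11.40 in control and 10.54 and 11.02 in Ovol2 BT skin (-0.57, SE 0.21, adjusted p = 0.906, unadjusted p = 0.0392). It was -0.81 without Ovol2 BT replicate 2.

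**Figure D3:**
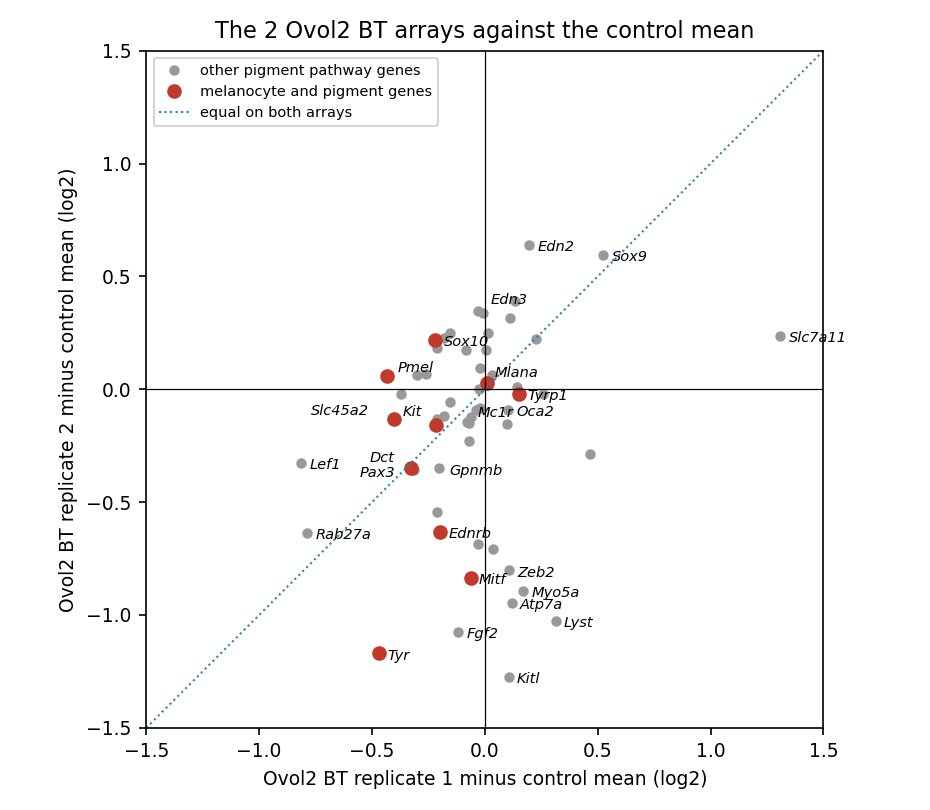
Each point is a gene, with its level on Ovol2 BT replicate 1 (x axis) and on Ovol2 BT replicate 2 (y axis) minus the control mean, in log2 units; red points are the 10 melanocyte and pigment genes, grey points the 48 other pathway genes tested, and the dotted line marks equal values. Dct, Pax3 and Rab27a lie near the line, whereas Mitf, Kitl, Lyst, Atp7a, Myo5a and Zeb2 are near 0 or above on replicate 1 and far below 0 on replicate 2.

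Markers of the other cells that share these genes were set beside them. No gene of the lists in this paragraph passed the limma test. Of 11 mast cell markers, a cell type that also makes Kit, 9 were tested, with 6 above 0 and 3 below, where 45.6% of all genes were below 0. Their summed intensity was 27352 to 30027 in control and 29205 to 32145 in Ovol2 BT skin. The mast cell genes Cpa3, Hdc and Tpsb2 differed by -0.29, 0.12 and 0.22. Schwann cell and nerve markers, which bear on Sox10 and Ednrb, summed to 8125 to 8489 in control and 8289 to 9023 in Ovol2 BT skin, from 9 genes, with 7 tested and 4 of these above 0. Of these, Cdh19 and Gfap lay under the filter. Endothelial markers, which bear on Ednrb, summed to 17110 to 18203 and 17781 to 19963, with 8 of 10 above 0. Macrophage markers, which bear on Gpnmb, were higher on both Ovol2 BT arrays for 9 of 11, beside 20.1% of all genes (sums 10215 to 11732 and 13848 to 15538).

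Melanoblasts settle among keratinocytes and in hair placodes, and no marker of either passed the test. All 4 keratinocyte markers lay lower on both Ovol2 BT arrays, beside 14.1% of all genes, with Krt5 at -0.87 (SE 0.06, limma adjusted p = 0.0597), Krt1 at -0.08 (adjusted p = 0.906) and sums of 57293 to 57959 in control and 45916 to 45932 in Ovol2 BT skin. Of 8 hair placode markers 7 were tested. At an unadjusted p under 0.05, 4 were lower (Lhx2, Edar, Shh and Ptch1) and 2 higher (Bmp2 and Sostdc1), beside 1.74% and 2.49% of all genes. Erythroid and skeletal muscle markers varied within both genotypes. The erythroid sums were 4106 and 9150 in control and 4870 and 16275 in Ovol2 BT skin. The skeletal muscle sums were 65566 and 40909 in control and 40781 and 70745 in Ovol2 BT skin. The part of any of these lists in the levels of the pigment genes was not tested.

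The 5 genes whose levels came nearest to the mean centred profile of Tyr, Tyrp1, Dct, Pmel, Mlana and Slc45a2 over the 4 arrays were Lama2, Fam118a, Map3k5, Tmem154 and Zbtb8os. Their root mean square difference from it was between 0.01 and 0.02 log2 units (Lama2 0.011, Zbtb8os 0.022). That profile was at 0.08 and 0.18 in control and at -0.12 and -0.14 in Ovol2 BT skin. With 4 arrays and so shallow a profile, 881 of 14943 other genes lay within 0.1 of it, and the likeness singles out no gene.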

How the data were processed

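Deposited values were 1 intensity per probe set and array on a linear scale, made by the authors in Affymetrix Expression Console 1.1.1 with PLIER 2.0, per the submitters' processing notes. The normalisation between arrays was not given in the sources used here, nor was the genome build. Median intensity lay between 266.0 and 303.5, and arrays give no read depth, so their number limits the precision. Of 35557 probe sets, 21789 had 1 gene symbol, 1621 several and 12147 no listed gene. The last 2 kinds were not used. For 21698 of the probe sets with 1 gene symbol, the Entrez number led to the current RefSeq symbol (GRCm38.p6).

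Values were taken to log2(intensity + 16), the offset shrinking the differences of dim genes. The brightest probe set stood for each gene, and genes whose mean lay under the 25th percentile (7.32) were left out. limma 3.58.1 in R 4.3.3 fitted Ovol2 BT minus control by lmFit and eBayes (intensity trend, 2 residual and 3.45 prior degrees of freedom), two-sided, with Benjamini-Hochberg adjustment over every gene tested, and calls were made at an adjusted p under 0.05. Permuting 2 arrays against 2 cannot reach that threshold, so no exact test was used. The steps were tested on simulated data.

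The members and gene lists were chosen with earlier results of these data known. Named were all members, Ovol2, 7 pathway genes in advance (Kitl, Edn3, Mc1r, Asip, Pax3, Gpnmb, Oca2), any other pathway gene called, the 3 with the largest difference in each direction, up to the 3 brightest of each marker list, and the 5 genes of nearest profile. Other genes were named after their values were seen. Alternatives were quantile normalisation, median centring, cyclic loess, offsets of 1 and 64, no filter, a stricter one (50th percentile), averaged probe sets, a variance without trend, array weights, a replicate block and leaving out each array.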

Additional observations from a re-analysis of the deposited data

How the results depend on the processing

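The differences of the named genes kept their direction and their side of the threshold in most alternatives. Of the pathway genes, Kitl, Fgf2, Rab27a, Sox9, Edn2, Lef1 and Slc7a11 crossed it in a fit that left out an Ovol2 BT array. Such a fit rests on a single Ovol2 BT array. No member was called in any alternative except without Ovol2 BT replicate 1, where Tyr, Mitf and Ednrb were. The count of members below 0 ran from 6 (of 7 tested, stricter filter) to 9. Their median was -0.16 with median centring, -0.26 with cyclic loess, and -0.19 both with the stricter filter (50th percentile) and with averaged probe sets, where Mitf fell under the filter. It ran from -0.22 to -0.14 when each array was left out. The count of called genes, 4, was 7 with median centring, 0 with cyclic loess and 0 with a variance without trend, and ran from 4 to 2453 when each array was left out. Ovol2 itself was not called with cyclic loess (limma adjusted p = 0.0709) or with a variance without trend (adjusted p = 0.059). Signs turned for Mlana (-0.034) and Oca2 (-0.0454) with cyclic loess, and for Sox10 with quantile normalisation (0.0276), median centring (0.0635) and an offset of 64 (0.0005). The cause was not tested. Leaving out each array also turned signs, with ranges of -0.19 to 0.31 for Tyrp1, -0.43 to 0.06 for Pmel, -0.0235 to 0.0581 for Mlana, -0.22 to 0.22 for Sox10, -1.27 to 0.11 for Kitl, -0.0094 to 0.34 for Edn3, -0.56 to 0.0108 for Gpnmb and -0.0925 to 0.10 for Oca2.

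With the replicate number as a block 9 genes were called and 0 members. Nothing in the labels ties same-numbered arrays, whose deviations correlated at -0.17 over genes. The crossed block, chosen after seeing this, called 5 genes.

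Depth cannot be given for arrays. Tyr, Mlana and Slc45a2 are dim and fell under the stricter filter (50th percentile). Only Tyr, at 7.24 on Ovol2 BT replicate 2, read under the main filter level of 7.32.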
